A study of Mus musculus with 11 samples.

Results

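Heat shock proteins and their DnaJ partners are the chaperones that bind unfolded protein in the cytosol, the endoplasmic reticulum and mitochondria. The HSP70 proteins (Hspa genes) hold and release client protein in a cycle driven by ATP. J-domain proteins (Dnaja, Dnajb and Dnajc genes) bring clients and start ATP hydrolysis, and exchange factors such as the HSP110 proteins and Hspbp1 end the cycle. Small heat shock proteins (most Hspb genes) hold unfolded protein without ATP. Heat shock factor 1 induces many of these genes in stressed cells, and the unfolded protein response induces those of the endoplasmic reticulum. In Huntington's disease the huntingtin protein carries a long glutamine stretch that aggregates, and several of these chaperones, among them Dnajb6 and Dnajb1, are known to keep such stretches soluble.

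The genes described here are those whose names begin with Hspa, Hspb, Hspd, Hspe or Hsph, or with Dnaja, Dnajb or Dnajc and a number, without pseudogene names, and whose normalized count was at least 10 in at least 3 of the 11 libraries. There were 64 such genes among the 16768 genes that reached this level and the 20957 genes of the table. They comprised 13 Hspa genes, 6 genes named Hspb and a number, Hsph1, Hspd1 and Hspe1, and the cofactors Hspbp1 and Hspbap1. The others were 4 Dnaja, 11 Dnajb and 25 Dnajc genes, and all 64 were protein coding. Hspb1, Hspb2, Hspb6, Hspb7, Hspb8 and Hspb11 are called the numbered Hspb genes below, a set made by name only. A further 3 genes with matching names, Hspb3, Hspb9 and Dnajc22, stayed below the level and were not tested.

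RNA was sequenced from small pieces of striatum of BACHD mice on the FVB/N background, a line in which a full-length mutant HTT gene of human origin is present besides the mouse Htt. All groups carried this transgene, and no wild-type animals were compared. The mice received SPI-77 (3 libraries), SPI-24 (4 libraries) or the DMSO vehicle (4 libraries) under the skin on 4 days, and tissue was taken 6 h after dosing ended. Both compounds, known by their code names, inhibit the contact between Spt5, a transcription elongation factor, and RNA polymerase II, and the study calls their chemistry different. It used more than 1 daily dose of each compound, at amounts that differed between the compounds, and the labels state neither which dose the sequenced mice received nor their age. Compound and dose therefore cannot be told apart in a comparison of SPI-77 with SPI-24. Libraries are named by group and replicate number, as in SPI-24 4.

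The libraries held between 10179606 and 33751889 recovered reads, and 1 read was worth between 0.468 and 1.79 normalized counts. SPI-24 4 detected 16263 genes and the other libraries 17932 to 20313. The pieces differed in their markers of cell types. Of 14 markers of medium spiny neurons, the main neurons of the striatum, 13 passed the level, and their mean log2 level was 7.60 to 8.38 in SPI-77, 7.63 to 11.8 in SPI-24 and 9.93 to 12.1 in DMSO libraries. Of these 13 markers, 6 were lower in SPI-77 than in DMSO libraries by limma and 0 were higher. The dopamine receptor gene Drd1 had 18.7 to 68.2 normalized counts in SPI-77 libraries, 42.0 to 1209 in SPI-24 libraries and 247 to 1505 in DMSO libraries, and the receptor gene Gpr6 was at 0 in SPI-77 3. The 6 mural cell markers, of which 4 were higher with SPI-77, averaged 9.37 to 9.42 on the log2 scale in SPI-77, 8.87 to 9.13 in SPI-24 and 7.94 to 8.78 in DMSO libraries. The 8 thalamic markers, of which 2 were higher with SPI-77, averaged 9.31 to 9.79 in SPI-77, 9.07 to 11.01 in SPI-24 and 7.44 to 9.70 in DMSO libraries. Of 5 astrocyte markers, 2 were higher (Gfap and Aldh1l1) and 2 lower (Gja1 and Slc1a3) with SPI-77, 1 of 5 endothelial markers was higher and 1 of 4 microglial markers lower. All 5 choroid plexus and all 5 ependymal markers had log2 fold changes below 0 with both SPI-77 (median -1.22 for either list) and SPI-24 (medians -1.68 and -1.61), and 0 of them were called. Over all genes, 8.03% were higher and 9.14% lower with SPI-77. In such bulk pieces, fewer cells of a type and less RNA per cell cannot be told apart. Xist was low and Ddx3y present, as in males, in all 3 SPI-77 libraries, in SPI-24 3 and in DMSO 2 and DMSO 4. The other libraries showed the reverse, so sex was not balanced between SPI-77 and the other groups.

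Promoter sequences are shown for 5 members, namely 4 that hold an element of a stress pathway named above, and Dnajb9, the called member with the most negative log2 fold change. They are RefSeq sequences of GRCm38.p6, the 250 bases before the start of transcription, read in the direction of the gene. In Hspa1a and Hspe1, capitals mark facing GAA units (GAANNTTC or TTCNNGAA), the core of the element that heat shock factors bind. Hspa1a (chr17:34972157-34972406, minus strand) encodes the inducible HSP70 and held 1 such match, whose first base lay 104 bases before the start. Hspe1 (chr1:55087898-55088147, plus strand) encodes the mitochondrial cochaperonin and held overlapping matches, the first of which began 89 bases before the start.
Hspa1a: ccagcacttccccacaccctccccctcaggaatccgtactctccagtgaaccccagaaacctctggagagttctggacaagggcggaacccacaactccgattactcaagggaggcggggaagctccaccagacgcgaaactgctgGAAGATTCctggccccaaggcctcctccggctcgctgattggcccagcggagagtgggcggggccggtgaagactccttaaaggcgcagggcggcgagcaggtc
Hspe1: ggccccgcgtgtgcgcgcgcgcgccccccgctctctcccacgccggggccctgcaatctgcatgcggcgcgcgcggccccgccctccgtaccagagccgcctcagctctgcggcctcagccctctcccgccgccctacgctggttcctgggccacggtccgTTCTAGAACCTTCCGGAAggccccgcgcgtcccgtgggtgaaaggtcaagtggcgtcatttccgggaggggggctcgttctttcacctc

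The other promoters belong to the endoplasmic reticulum. Capitals mark the endoplasmic reticulum stress element, CCAAT and CCACG with 9 free bases between them, in Hspa5 (chr2:34771840-34772089, plus strand) and Dnajc3 (chr14:118937682-118937931, plus strand). In Dnajb9 (chr12:44210069-44210318, minus strand) the whole element was not matched, and capitals mark CCACG alone. Hspa5 is the HSP70 of this compartment (BiP), and Dnajc3 and Dnajb9 encode J-domain partners of it.
Hspa5: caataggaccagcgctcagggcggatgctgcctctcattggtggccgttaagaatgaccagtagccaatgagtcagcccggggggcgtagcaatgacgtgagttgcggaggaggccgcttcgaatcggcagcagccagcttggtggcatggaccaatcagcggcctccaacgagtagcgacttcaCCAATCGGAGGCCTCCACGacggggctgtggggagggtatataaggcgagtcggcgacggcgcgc
Dnajc3: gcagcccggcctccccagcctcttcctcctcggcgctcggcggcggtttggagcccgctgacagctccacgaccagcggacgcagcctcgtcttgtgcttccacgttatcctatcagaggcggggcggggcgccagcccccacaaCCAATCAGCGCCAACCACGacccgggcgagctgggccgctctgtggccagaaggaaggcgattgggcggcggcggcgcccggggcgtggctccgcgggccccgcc
Dnajb9: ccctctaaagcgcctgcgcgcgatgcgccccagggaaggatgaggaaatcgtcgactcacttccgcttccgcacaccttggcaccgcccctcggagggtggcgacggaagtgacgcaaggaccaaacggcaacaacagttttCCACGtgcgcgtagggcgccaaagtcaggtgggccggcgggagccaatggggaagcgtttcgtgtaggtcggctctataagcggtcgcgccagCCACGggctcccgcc

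RefSeq promoters with a further 50 bases after the start were at hand for 54 members and for 27025 genes in all, and both strands were searched. The stress element was found in 2 members (3.70%, Hspa5 and Dnajc3) and in 0.137% of all genes. GAANNTTC was found in 12 members (22.2%) and in 9.04% of all genes, and TTCNNGAA in 6 members (11.1%) and in 9.60% of all genes. A run of 3 alternating GAA units, which contains both of these words, was found in Dnajb6, Hspd1, Hspe1 and Hsph1 (7.41%) and in 0.662% of all genes. Hspd1 and Hspe1 share a promoter region, and the same bases are counted for both genes in all 3 of these counts. GAANNTTC is also counted in both Hspa1a and its near-identical copy Hspa1b. CCACG, which is part of the stress element, was in 32 members (59.3%) and in 35.5% of all genes. CCAAT, its other part, was in 22 members (40.7%) and in 41.1% of all genes. TATAAA was in 3 members (5.56%) and in 15.7% of all genes. TGACGTGG, an element of the unfolded protein response, was in 1 member (1.85%) and in 0.714% of all genes. The 27025 genes were not filtered by level as the members were, so these shares come from unlike sets. The matches describe letters only. The promoter table held no entry for Hspa13.

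In DMSO libraries the members covered a wide range of levels. Divided by the length of the longest transcript, the DMSO mean ran from 2.97 normalized counts per kb for Hspb7 to 1779.6 for Dnajc7, a 599.8-fold range with a median of 204. Dnajc7, which passes clients between HSP70 and HSP90, was followed by Hspa5 with 1257 per kb, the neuronal J-domain gene Dnajb2 with 1165, the exchange factor gene Hspbp1 with 1160.0 and the mitochondrial HSP70 gene Hspa9 with 1091. The inducible gene Hspa1a was near the other end with 6.04 per kb, and its near-identical copy Hspa1b had 27.5. The numbered Hspb genes had a median of 76.1 per kb, with Hspb8 highest among them at 259. Reads with several positions were dropped by the authors, so Hspa1a, Hspa1b, and Hspa8, Hspe1 and Dnajb6 with their processed copies in the genome, are uncertain in level. Hspa8, the constitutive HSP70, was measured at 205 per kb. Exons of 23 members overlap a gene on the other strand, such as Hspb2 and Cryab over 252 bases, Dnajc13 and Gm37563 over 232 bases, and Hspd1 and Hspe1 over 112 bases. The strand setting of the counting is not given in the sources.

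**Figure D1:**
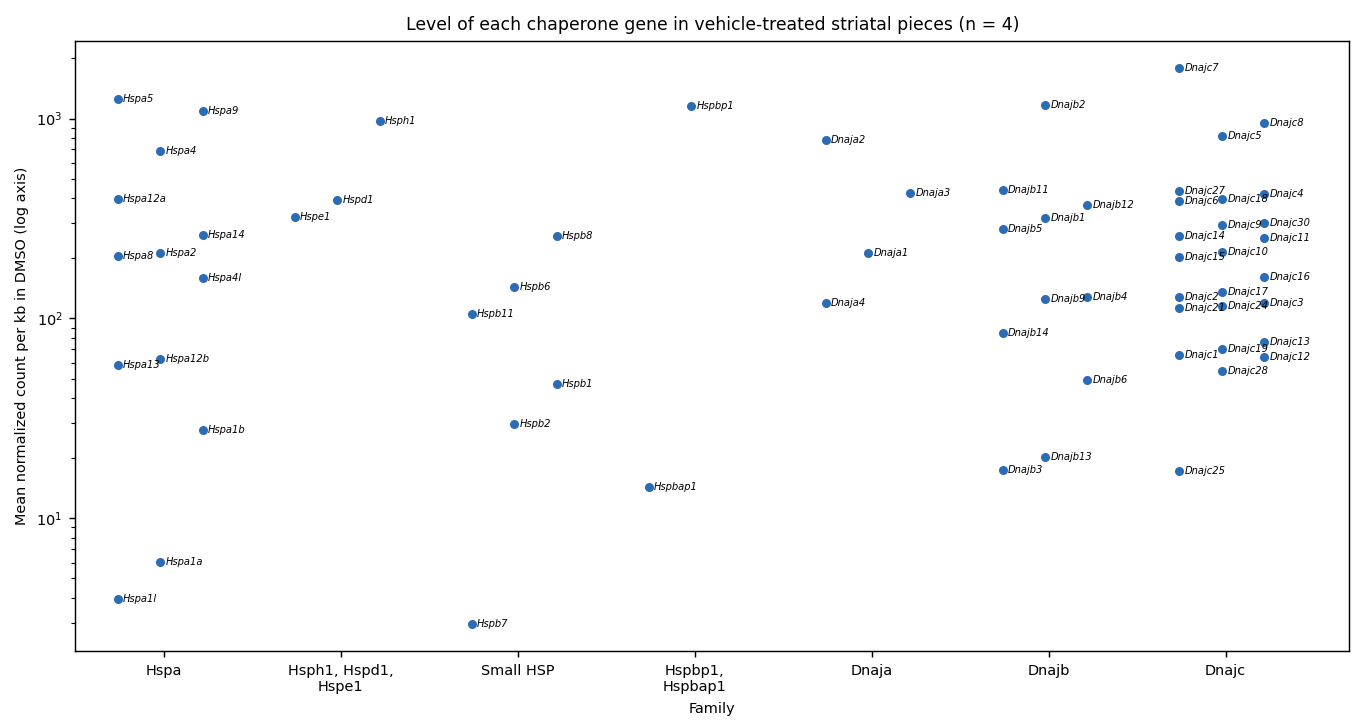
Mean normalized count per kb of the longest transcript in the 4 DMSO libraries for each of the 64 genes (vertical log axis), by family (horizontal axis). Dnajc7 stood highest at 1779.6 per kb, and Hspb7, Hspa1l and Hspa1a lay below 10 per kb. The family labelled small HSP holds the 6 numbered Hspb genes.

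SPI-77 was set against DMSO to ask which of these genes changed under the compound. Of the 64 members, 2 were higher and 7 were lower in SPI-77 libraries at a limma adjusted p below 0.05 over all genes. Among all genes tested 8.03% were higher and 9.14% were lower. Hspa13, Dnajb9 and Dnajb4 were lower by at least 2-fold, as were 5.28% of all genes, and 0 members were higher by at least 2-fold, against 1.12% of all genes. The groups did not overlap for 13 members that were higher and 9 that were lower in SPI-77 (20.3% and 14.1%), and for 17.2% and 15.3% of all genes, so that the members' shares lay near the background. The median log2 fold change was 0.09 over the members and -0.01 over all genes.

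The genes of the endoplasmic reticulum held 4 of the 7 lower members, out of 11 on that list (median log2 fold change -0.21). Among all genes 9.14% were lower. The list was chosen with earlier results of these data known, so its share is not a test of this compartment. Hspa13, a microsomal ATPase related to HSP70, had 83.9, 102 and 75.0 normalized counts in SPI-77 libraries, against 149, 269.8, 224 and 350.0 in DMSO libraries. All SPI-77 values lay below all DMSO values, and the log2 fold change was -1.45 ± 0.27 (SE, limma adjusted p = 0.0179). Dnajb9 had 81.3, 105 and 87.5 normalized counts in SPI-77 libraries, against 136, 243, 280.2 and 568 in DMSO libraries. Its DMSO values spread 4.19-fold without reaching down to the SPI-77 values, and the log2 fold change was -1.56 ± 0.36 (adjusted p = 0.0205).

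Dnajc3, whose promoter holds the stress element, had 366, 352 and 389 normalized counts in SPI-77 libraries, against 373, 636, 688 and 767 in DMSO libraries. DMSO 1 lay within the SPI-77 values, and the log2 fold change was -0.69 ± 0.21 (adjusted p = 0.0401). Dnajc10, which encodes a disulfide reductase for misfolded protein, had 617, 605 and 655 normalized counts in SPI-77 libraries, against 741, 929, 839 and 968 in DMSO libraries. The groups did not overlap, and the log2 fold change was -0.47 ± 0.15 (adjusted p = 0.0469).

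Hspa5, the chaperone that these J-domain proteins serve, was not called. It had 4613, 4779 and 5359 normalized counts in SPI-77 libraries, against 4668, 4288, 4676 and 4827 in DMSO libraries. The groups overlapped, and the log2 fold change of 0.09 had a 95% interval of -0.15 to 0.33, which excludes a 2-fold change. Dnajb11, another J-domain partner of Hspa5, averaged 1325 ± 149 in SPI-77 libraries (SD, n = 3) and 1101 ± 69.5 in DMSO libraries (SD, n = 4), with a log2 fold change of 0.26 ± 0.13 (adjusted p = 0.154). Of the members with the whole stress element in the promoter, Dnajc3 was thus lower and Hspa5 was not called.

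Outside this compartment there were 3 lower members. Dnajb4, a cytosolic relative of Dnajb1, had 278, 288 and 255 normalized counts in SPI-77 libraries, against 364, 710.3, 561 and 869.8 in DMSO libraries. The groups did not overlap, and the log2 fold change was -1.12 ± 0.25 (adjusted p = 0.0192). Dnajc13, which acts on endosomes, had 472, 413 and 277 normalized counts in SPI-77 libraries, against 496, 704, 561 and 689.6 in DMSO libraries, with SPI-77 3 lowest (log2 fold change -0.68 ± 0.22, adjusted p = 0.0469). Dnajc28, on the mitochondrial list, had 133, 129 and 114 normalized counts in SPI-77 libraries, against 189.6, 202, 175 and 201 in DMSO libraries. Its groups did not overlap either, with a log2 fold change of -0.61 ± 0.18 (adjusted p = 0.0349).

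Neither higher member overlapped with DMSO. Dnajc4, on the mitochondrial list, had 723, 691 and 989 normalized counts in SPI-77 libraries, against 588, 401, 459 and 348 in DMSO libraries, with a log2 fold change of 0.84 ± 0.19 (adjusted p = 0.0188). Hspbp1, the nucleotide exchange factor of HSP70, had 2660.0, 2599.7 and 3163 normalized counts in SPI-77 libraries, against 2344, 1561, 1927 and 1559 in DMSO libraries. Its log2 fold change was 0.62 ± 0.16 (adjusted p = 0.0241). Just outside the limit stood Dnajc14 (limma adjusted p = 0.0512) and Dnajc16 (limma adjusted p = 0.0532), both named after their values were seen. The 55 members not called ran from a log2 fold change of -1.66 for Hspa1l to 1.78 for Hspb7, which were the members at 0 in some library.

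**Figure D2:**
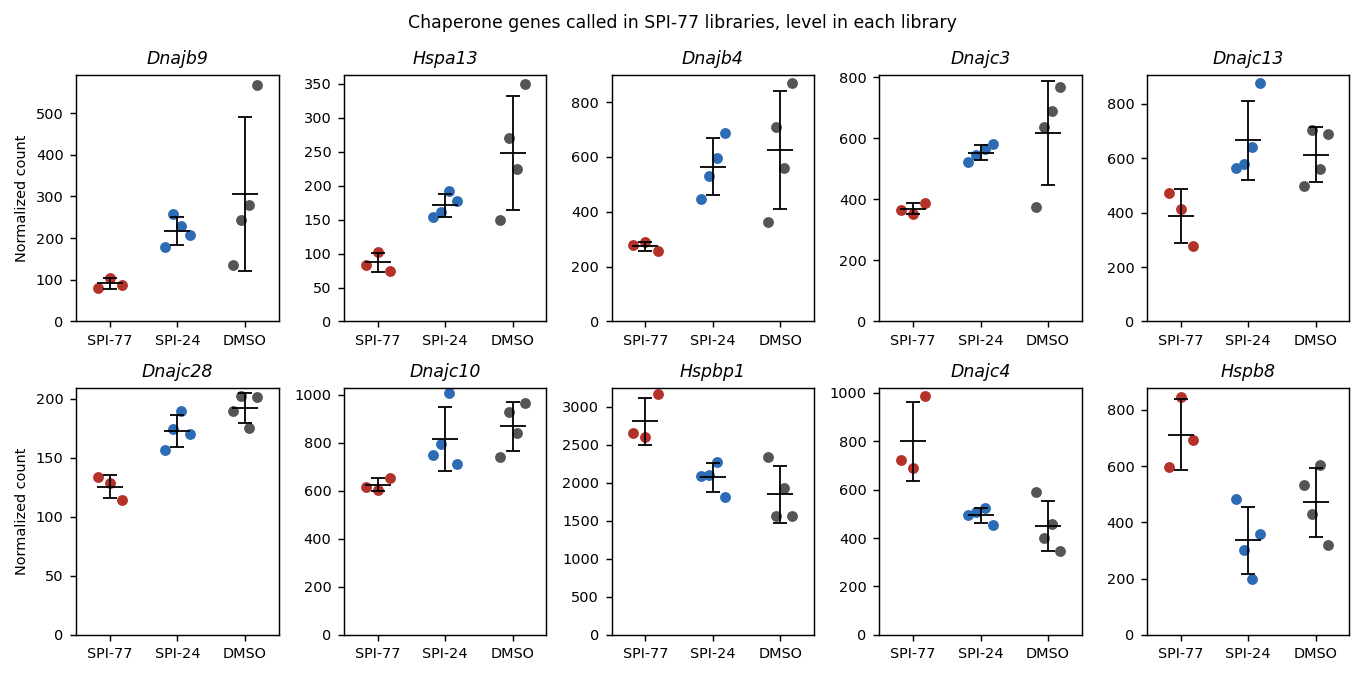
Normalized counts (vertical axes, from 0) of the 10 chaperone genes called in a comparison of SPI-77 with DMSO or SPI-24, for each library by group (points), with the group mean and SD (bars). For Hspa13 the SPI-77 values of 75.0 to 102 lie below all others, and for Dnajc3 DMSO 1 at 373 lies among the SPI-77 values.

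The counts of calls depended on single libraries. Without SPI-77 1, SPI-77 3, DMSO 2 or DMSO 4, 0 members were called in either direction (12 to 17 had an unadjusted p below 0.05), and 0 of all genes were called in these fits either. Without DMSO 1 there were 6 higher and 12 lower members, and 2254 higher and 2577 lower of all genes, against 1346 and 1533 with every library. Without SPI-24 4, which enters only through the shared spread, there were 4 higher and 9 lower members, and 1991 and 2184 of all genes. There were 2 higher and 4 lower without SPI-24 1, and 2 higher and 3 lower without SPI-24 2, SPI-77 2 or DMSO 3. With the medium spiny level as a covariate 0 members were called (15 had an unadjusted p below 0.05, lowest adjusted p = 0.267), and 0 of all genes were called. All SPI-77 libraries lay below all DMSO libraries in this level, so the level and SPI-77 cannot be told apart between these groups. SPI-24 2 and SPI-24 3 had levels of 7.63 and 7.68, within the SPI-77 range of 7.60 to 8.38. A comparison of SPI-77 with these SPI-24 libraries alone was not tested. With sex as a covariate, chosen after the data were seen, there were 5 higher and 11 lower members. Of all genes, 1542 were higher and 1957 lower in that fit.

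Transcript length and base composition moved with the fold change. The 7 lower members had a median longest transcript of 4237 bases with a median GC content of 43.2%, and the 2 higher members 1334 bases with 58.7%. Over all genes called, the medians were 4809 bases and 44.6% for lower genes, and 2020 bases and 54.0% for higher genes. Across the 64 members, which share their libraries, Spearman's rho of the log2 fold change was -0.28 with length and 0.46 with GC content, against -0.33 and 0.40 across all genes with a sequence. The part of length and composition in these calls was not tested.

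Heat-inducible members did not move together with SPI-77. Of 12 on that list, 1 was lower (Dnajb4) and 0 were higher, with a median log2 fold change of 0.17. Among all genes 9.14% were lower and 8.03% higher. Hspa1a had 38.6, 50.6 and 37.5 normalized counts in SPI-77 libraries, against 23.0, 15.8, 16.5 and 16.4 in DMSO libraries. The groups did not overlap, and the log2 fold change was 1.20 ± 0.63 (adjusted p = 0.193), with an interval of -0.17 to 2.56. Hspa1b averaged 104 ± 29.8 normalized counts in SPI-77 libraries and 77.1 ± 31.7 in DMSO libraries (log2 fold change 0.48 ± 0.42, adjusted p = 0.45). Dnajb1, a main J-domain partner of HSP70 in the cytosol, averaged 1069.8 ± 146 in SPI-77 libraries and 956 ± 93.4 in DMSO libraries (log2 fold change 0.16 ± 0.16, adjusted p = 0.513).

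Hsph1, which encodes an HSP110 exchange factor, averaged 5212 ± 357 normalized counts in SPI-77 libraries and 4632 ± 420.1 in DMSO libraries (log2 fold change 0.17 ± 0.12, adjusted p = 0.331). Hspa8 had 538, 649 and 907 normalized counts in SPI-77 libraries, against 592, 771, 531 and 692 in DMSO libraries, and the interval of its log2 fold change was -0.50 to 0.69. The values of both groups were mixed. Hspa4 and Hspa4l, which also encode HSP110 proteins, had log2 fold changes of -0.07 ± 0.12 and -0.48 ± 0.26 (adjusted p = 0.735 and 0.207), and Hspa12a had 0.26 ± 0.24 (adjusted p = 0.468). Dnaja1, a class A partner of HSP70, had 1448, 1420.3 and 1412 normalized counts in SPI-77 libraries, against 1125, 1001, 1239.8 and 1401 in DMSO libraries, without overlap (log2 fold change 0.27 ± 0.15, adjusted p = 0.214). By J-domain class, 0 of 4 class A genes were called and 2 of 11 class B genes were lower. Of 25 class C genes 1 was higher and 4 were lower. The shares of all genes were 8.03% higher and 9.14% lower.

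Of the 10 mitochondrial members, 1 was higher (Dnajc4) and 1 lower (Dnajc28), with a median log2 fold change of 0.35. Among all genes 8.03% were higher and 9.14% lower. Hspa9 averaged 3643 ± 128 normalized counts in SPI-77 libraries and 3328 ± 178 in DMSO libraries (log2 fold change 0.13 ± 0.11, adjusted p = 0.401). Hspd1, which encodes the mitochondrial chaperonin, averaged 885 ± 132 in SPI-77 libraries and 951 ± 113 in DMSO libraries (log2 fold change -0.11 ± 0.14, adjusted p = 0.634). Its neighbour Hspe1, transcribed in the opposite direction from the same region, had 473, 320.2 and 549.8 normalized counts in SPI-77 libraries, against 478, 195, 239 and 323 in DMSO libraries. The groups overlapped, and the log2 fold change was 0.58 ± 0.28 (adjusted p = 0.156).

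Among 6 measured members known to hold back glutamine aggregates, 0 were called, with a median log2 fold change of 0.20. Dnajb2 had 4338, 4754 and 5649.6 normalized counts in SPI-77 libraries, against 4314, 3199, 4068 and 2709 in DMSO libraries. The lowest SPI-77 library and the highest DMSO library were close, and the log2 fold change was 0.48 ± 0.17 (adjusted p = 0.0676). Dnajc7 averaged 4818 ± 215 in SPI-77 libraries and 4146 ± 297 in DMSO libraries (log2 fold change 0.22 ± 0.12, adjusted p = 0.208). Dnajb6 had 136, 183 and 249.9 normalized counts in SPI-77 libraries, against 131, 159, 105 and 178 in DMSO libraries (log2 fold change 0.38 ± 0.36, adjusted p = 0.48). At synapses, Dnajc5, which encodes the cysteine string protein of vesicles, averaged 5397 ± 526 in SPI-77 libraries and 5395 ± 555 in DMSO libraries, with an interval of -0.27 to 0.27 on the log2 scale. Dnajc6, the auxilin that helps to uncoat clathrin vesicles, had a log2 fold change of -0.51 ± 0.22 (adjusted p = 0.121).

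None of the 6 numbered Hspb genes was called against DMSO, and their median log2 fold change was 0.39. Hspb8, which works with Bag3 in the autophagy of misfolded protein, had 595, 846 and 694 normalized counts in SPI-77 libraries, against 532, 430.2, 602 and 319 in DMSO libraries (log2 fold change 0.62 ± 0.28, adjusted p = 0.137). DMSO 3 lay above the lowest SPI-77 library. Hspb1 had 46.6, 72.6 and 12.5 normalized counts in SPI-77 libraries, against 78.1, 27.8, 51.8 and 16.4 in DMSO libraries. Its spread within groups was wide, with a log2 fold change of -0.07 ± 0.59 (adjusted p = 0.945).

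**Figure D3:**
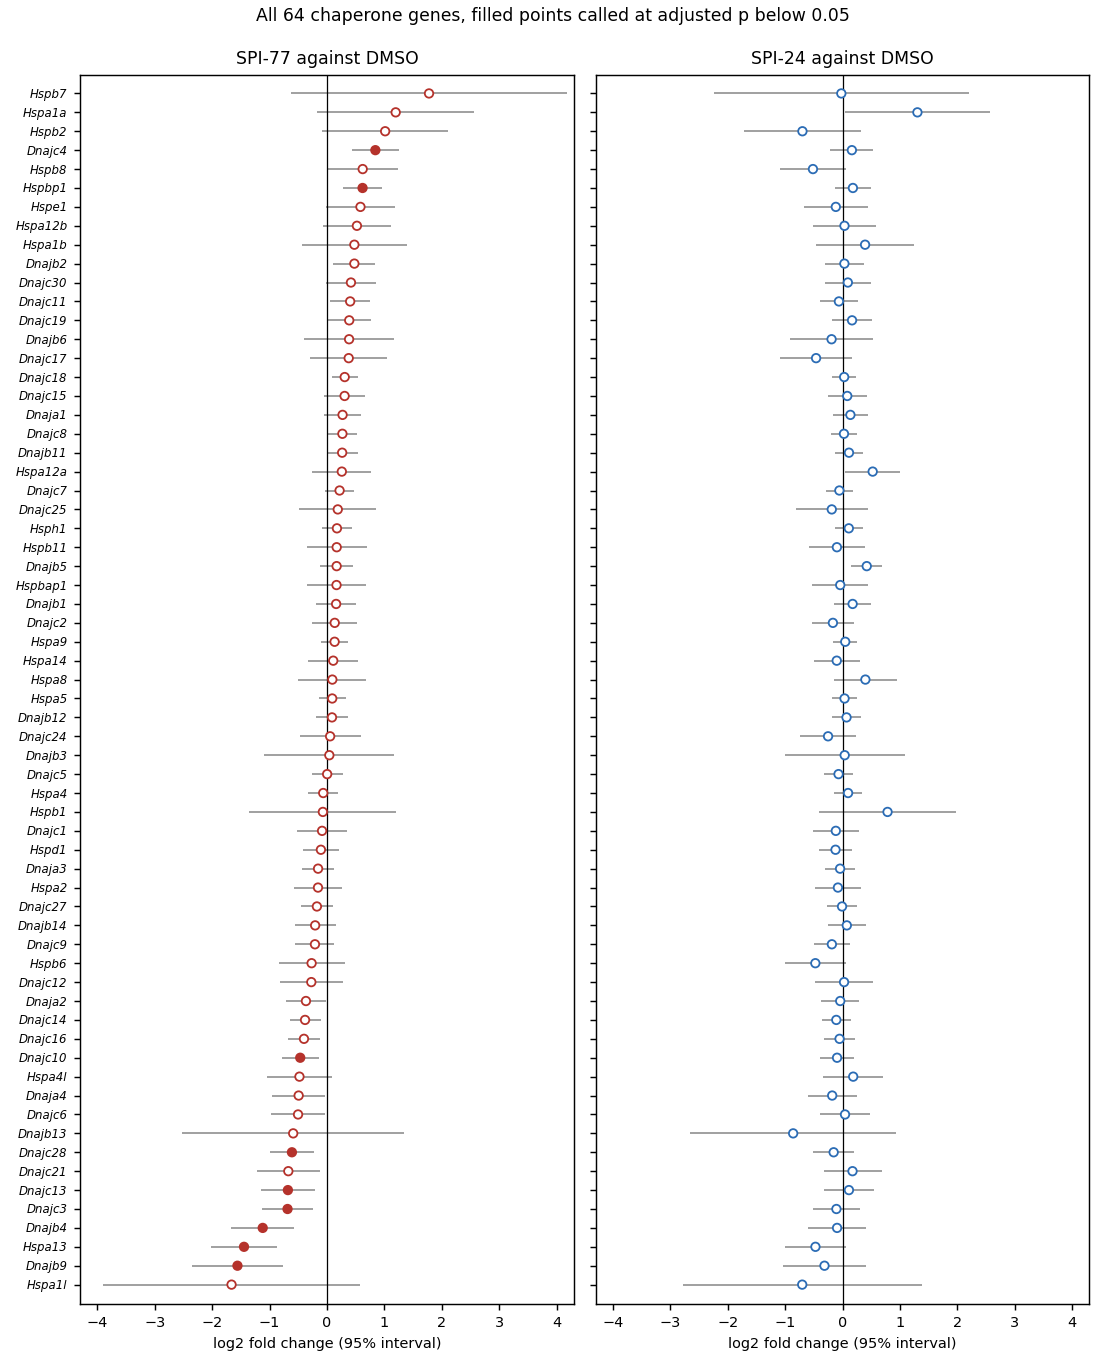
The log2 fold change (horizontal axes) of each of the 64 genes with its 95% interval, for SPI-77 against DMSO (left) and SPI-24 against DMSO (right), ordered by the SPI-77 value, with filled points for adjusted p below 0.05. With SPI-77, 2 points are filled on the positive side and 7 on the negative side, and with SPI-24 0 points are filled.

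Chaperone genes outside these families were followed through lists. Their counts stand against 8.03% of all genes higher and 9.14% lower. Of 13 genes of the HSP90 system, 4 were higher (Stip1, Fkbp4, Cdc37 and Ahsa1) and 1 lower (St13) in SPI-77 libraries. Hsp90aa1, the inducible HSP90, had 2148, 1841 and 5209 normalized counts in SPI-77 libraries, against 1214, 1492, 1373 and 1721 in DMSO libraries, with SPI-77 3 far above the rest (log2 fold change 0.93 ± 0.37, adjusted p = 0.0948). Hsp90ab1, the constitutive HSP90, averaged 33513 ± 2146 in SPI-77 libraries and 26249.8 ± 2267 in DMSO libraries (log2 fold change 0.35 ± 0.12, adjusted p = 0.0547). Of 14 chaperonin and prefoldin genes, 5 were higher (Pfdn1, Pfdn2, Pfdn5, Pfdn6 and Cct7), and 1 was lower (Vbp1). Of 10 HSF and BAG regulators 2 were higher (Bag1 and Stub1) and 1 lower (Bag4), and of 17 other genes of the unfolded protein response 3 were higher (Atf4, Ddit3 and Calr) and 2 lower (Canx and Sel1l). The median log2 fold changes of these lists were 0.35, 0.31, 0.04 and -0.03 in the order given. Hsf1, Bag3, Cryab, Hsp90b1 and Hyou1 were not called, with log2 fold changes of 0.18, 0.13, 0.68, 0.08 and -0.04 (limma adjusted p = 0.395, 0.756, 0.0736, 0.692 and 0.845).

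SPI-24 was set against DMSO with the same question. By limma, edgeR and DESeq2, 0 of 64 members were called, as were 0% of all genes in either direction, while 3 members by limma and 4 each by edgeR and DESeq2 had an unadjusted p below 0.05. The SPI-24 and DMSO values stood apart without overlap for 0 members, and for 0.99% of all genes higher and 0.817% lower. The median log2 fold change was -0.03 over members and -0.02 over all genes. For the genes lower by at least 2-fold with SPI-77, Hspa13 had 154, 161, 192 and 178 normalized counts in SPI-24 libraries, with an interval of the log2 fold change against DMSO of -1.0 to 0.06. Dnajb9 had 178, 258, 228 and 208, with an interval of -1.04 to 0.41, and Dnajb4 had 445, 529, 598 and 687, with an interval of -0.60 to 0.41. SPI-77 and SPI-24 were set against the same DMSO libraries.

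The members with the smallest p for SPI-24 were Dnajb5, Hspa12a and Hspa1a. Dnajb5, a class B gene, had 1840.4, 1978, 1928 and 1761 normalized counts in SPI-24 libraries, against 1763, 1332, 1224 and 1338 in DMSO libraries, where DMSO 1 reached the lowest SPI-24 library (log2 fold change 0.42 ± 0.12, limma adjusted p = 0.975). Hspa12a had 2188, 4105, 4563 and 2574 in SPI-24 libraries, against 2400.3, 1752, 2779.5 and 2107 in DMSO libraries. SPI-24 2 and SPI-24 3, whose medium spiny levels of 7.63 and 7.68 were the lowest of the SPI-24 libraries, were the highest for this gene (log2 fold change 0.52 ± 0.22, adjusted p = 0.975), and the part of these levels was not tested.

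SPI-24 4 stood apart for some heat-inducible genes, while it was the lowest SPI-24 library for Hsph1, Dnaja1 and Hspd1. Hspa1a had 42.1, 20.7, 23.7 and 196 normalized counts in SPI-24 libraries, against 23.0, 15.8, 16.5 and 16.4 in DMSO libraries. The log2 fold change of 1.30 ± 0.58 (adjusted p = 0.975) was 0.61 without SPI-24 4. Hspa1b had 89.5, 85.3, 54.9 and 195 in SPI-24 libraries, against 116, 58.4, 45.2 and 88.9 in DMSO libraries. Hspa8 had 1005, 628, 595 and 1344 in SPI-24 libraries, against 592, 771, 531 and 692 in DMSO libraries. Of the 12 heat-inducible members, 4 (Hspa1a, Hspa1b, Hspa8 and Dnajb1) had the highest value of all 11 libraries in SPI-24 4 and 1 had the lowest there, where this library was highest for 15.8% and lowest for 21.8% of all genes. SPI-24 3 was highest for 3 of the 12, and for 9.24% of all genes. The mean log2 level of the 12 genes was 8.76 to 8.87 in SPI-77 libraries, 9.23 in SPI-24 4, 8.70 to 8.89 in the other SPI-24 libraries and 8.54 to 8.77 in DMSO libraries. SPI-24 4 also had the highest mean log2 level of the 10 immediate early genes, 9.85, followed by 8.98 in SPI-24 1 and by 7.28 to 7.97 in the others, and it detected the fewest genes. The part of these in the heat-inducible values was not tested.

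**Figure D4:**
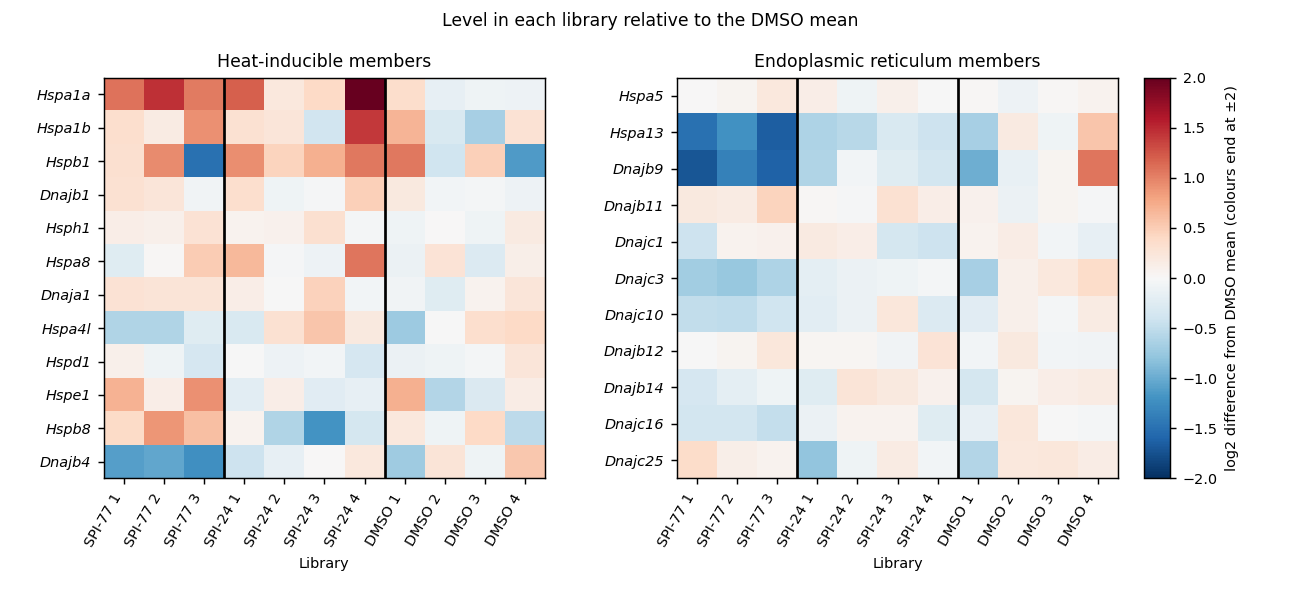
Difference of each library from the DMSO mean on the log2 scale (colours, ending at ±2) for the 12 heat-inducible genes (left) and the 11 genes of the endoplasmic reticulum (right), with genes down and libraries across. SPI-24 4 stands out for Hspa1a (196 normalized counts), and the SPI-77 libraries are low for Hspa13, Dnajb9 and Dnajb4.

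SPI-77 and SPI-24 were last compared with each other, at doses that cannot be matched. Of the 64 members, 2 were higher and 3 lower in SPI-77 libraries, against 3.05% and 3.96% of all genes. The groups did not overlap for 12 members that were higher and 11 that were lower (18.8% and 17.2%), against 16.1% and 15.3% of all genes. Hspb8 had 595, 846 and 694 normalized counts in SPI-77 libraries, against 483, 303, 199 and 359 in SPI-24 libraries, and the log2 fold change was 1.14 ± 0.28 (limma adjusted p = 0.0406). Dnajc4 was also higher (0.68 ± 0.19, adjusted p = 0.0475). Dnajb4 (-1.02 ± 0.25, adjusted p = 0.0403), Hspa13 (-0.97 ± 0.27, adjusted p = 0.0468) and Dnajc13 (-0.79 ± 0.22, adjusted p = 0.0468) were lower. Dnajb9 missed the limit with -1.25 ± 0.36 (adjusted p = 0.0533).

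These calls too depended on single libraries. There were 0 higher and 0 lower members without any 1 of the SPI-77 libraries, without SPI-24 2, SPI-24 3 or SPI-24 4, and without DMSO 3 (14 to 23 had an unadjusted p below 0.05 by limma). Of all genes, 0 were called in these fits too, apart from 3 lower without SPI-77 2. There were 0 and 1 members without DMSO 2, 1 and 2 without SPI-24 1, 4 and 7 without DMSO 1 (1049 and 1561 of all genes, against 511 and 664 with every library), and 2 and 5 without DMSO 4. Both comparisons of SPI-77 share its libraries, so the calls of Dnajb4, Hspa13, Dnajc13 and Dnajc4 in both are not independent. For Hspa5 the interval of the log2 difference between the compounds was -0.18 to 0.29, and for Dnajb1 it was -0.36 to 0.33.

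Variation within groups was summarised by the coefficient of variation (SD over mean). Its median over the 64 members was 11.6% in SPI-77, 15.3% in SPI-24 and 17.9% in DMSO libraries, with 3, 4 and 4 libraries behind the values. SPI-77 3 gave the highest value of all 11 libraries for 15 members (23.4%) and the lowest for 12 (18.8%), and was highest for 19.1% and lowest for 19.1% of all genes.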

How the data were processed

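Members and gene lists were chosen with earlier results of these data known. By the published methods and the submitters' notes on processing, the authors trimmed reads with cutadapt, aligned them to GRCm38 with STAR, dropped reads under 30 bases or with several positions, counted with HTSeq and normalized with DESeq2 (no versions given in the sources). The deposited values are normalized counts, a signal equal to reads divided by a size factor, and whole reads were recovered for 100% of values within 0.1 of a read. Deposited fold changes and p-values were not used. Promoters and their 1-based coordinates came from RefSeq (GRCm38.p6), and transcript lengths and overlaps from GENCODE.

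Genes with at least 10 normalized counts in at least 3 libraries were compared on log2(value + 1), which understates changes of low genes, with limma 3.58.1 in R 4.3.3 (trend, robust, all 11 libraries, group as the term, Benjamini-Hochberg adjustment over 16768 genes). Libraries are labelled biological replicates, and the sources do not say whether each is 1 animal. Named genes were, per comparison, up to 10 called in each direction by size, the 3 smallest p where under 3 were called in a direction, and a fixed set of main chaperones. edgeR 4.0.16, DESeq2 1.42.0 on recovered reads, other pseudocounts, filters and scalings, a replicate block, covariates and omission of each library were tried. The fit was tested on simulated data.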

Additional observations from a re-analysis of the deposited data

Results flagged for a closer look

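Within groups of 4, 62 sets of values of the named members were searched for a library set apart from the others. The limit is one that chance passes in about 1 of 20 groups. In all, 3 were found, which is about as many as chance alone would pass. Hspa1a was 196 normalized counts in SPI-24 4, against 20.7 to 42.1 in the other SPI-24 libraries. It was 23.0 in DMSO 1, against 15.8 to 16.5 in the other DMSO libraries. Hspe1, the mitochondrial cochaperonin gene, was 318 in SPI-24 2, against 249.9 to 259 in the other SPI-24 libraries.

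For 5 members (7.81%) the effects of SPI-77 and SPI-24 differed in the direct limma comparison, as they did for 7.01% of all genes. The calls of these members were lost without any 1 of the SPI-77 libraries. The differences on the log2 scale were 1.14 for Hspb8, 0.68 for Dnajc4, -1.02 for Dnajb4, -0.97 for Hspa13 and -0.79 for Dnajc13. For Hspb8 the effects had opposite signs, 0.62 with SPI-77 and -0.52 with SPI-24 against DMSO, neither of which passed the limit alone.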

How the results depend on the processing

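No result that passed the limit changed sign under any of the 25 alternatives per comparison. Counts of members called are given as higher and lower. For SPI-77 against DMSO (2 and 7), they were 2 and 4 with no filter on low values, 2 and 4 with quantile normalization, 0 and 0 with the medium spiny covariate, 0 and 0 without both libraries with the fewest genes detected (SPI-77 3 and SPI-24 4), and 5 and 11 with sex as a covariate. For SPI-77 against SPI-24 (2 and 3), they were 1 and 1 with no filter, 0 and 0 with quantile normalization, with the medium spiny covariate and without both low libraries, 2 and 1 by edgeR, 3 and 5 by DESeq2, 3 and 6 with only the groups compared, and 3 and 8 with sex. Over the fits that left out 1 library, the counts ranged from 0 to 6 higher and 0 to 12 lower for SPI-77 against DMSO, from 0 to 4 and 0 to 7 for SPI-77 against SPI-24, and stayed at 0 for SPI-24 against DMSO, as under every other alternative. The cause of these changes was not tested. With the medium spiny covariate and without both low libraries, 0 of all genes were called for SPI-77 against DMSO. For SPI-77 against SPI-24 at most 1 of all genes was called. With sex as a covariate, 1542 of all genes were higher and 1957 lower for SPI-77 against DMSO. For SPI-77 against SPI-24 those counts were 748 and 1302.

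Deviations from the group means correlated at -0.16 to 0.21 between same-numbered libraries of different groups. Between libraries of different groups and different numbers they correlated at -0.21 to 0.15. These ranges do not settle whether same-numbered libraries share more than a number. With the replicate block, the counts were 2 and 5 by limma and 2 and 7 by DESeq2 for SPI-77 against DMSO, 0 and 0 by both for SPI-24 against DMSO, and 0 and 1 by limma and 3 and 7 by DESeq2 for SPI-77 against SPI-24. Over all genes, DESeq2 without the block called 1848 higher and 2293 lower for SPI-77 against DMSO, where limma called 1346 and 1533, and 1111 and 1653 for SPI-77 against SPI-24, where limma called 511 and 664 (0 and 0 with quantile normalization). DESeq2 with the block called 20 higher and 5 lower of all genes for SPI-24 against DMSO, where limma called 0 and 0. With 3 or 4 libraries a group, a member that was not called may still differ by an amount within its interval. Genes of few reads, such as Hspa1l, Hspb7 and Hspa1a, had the widest intervals.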
